A study of Mus musculus with 15 samples.

Results

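A group of 7 transcription factor genes, tied to muscle wasting or to the signalling of the transforming growth factor family, was examined in mouse tibialis anterior (TA) muscle. They were chosen by name, as the forkhead box O genes Foxo1, Foxo3, Foxo4 and Foxo6, the Kruppel-like factor gene Klf15, the CCAAT/enhancer binding protein gene Cebpb and the TGFB-induced homeobox gene Tgif1, and are 7 of the 19057 genes that the arrays name. The samples were TA muscles of male C57BL/6 mice aged 8 to 10 weeks according to the labels, with 5 arrays for each of 3 labels and 1 mouse per array. Mice labelled Ctrl received PBS, those labelled Dox received 15 mg/kg of doxorubicin, an anthracycline used in cancer treatment that breaks DNA, and those labelled Dox + sACVR2B received in addition 10 mg/kg of sACVR2B-Fc, the ligand-binding domain of the type IIB activin receptor fused to an antibody Fc region, which traps myostatin and activins, 48 h before the drug. All injections were intraperitoneal and every muscle was taken 20 h after doxorubicin or PBS. No animals given sACVR2B-Fc without doxorubicin were part of the array series, and whole muscle was measured, so that fewer cells of a type and less RNA per cell cannot be told apart.

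FoxO proteins are held in the cytoplasm when the kinase Akt phosphorylates them, and they enter the nucleus when insulin or IGF1 signalling is low. There they switch on genes of protein breakdown and autophagy, among them Fbxo32 and Trim63, which encode the muscle ubiquitin ligases atrogin-1 and MuRF1. KLF15 and C/EBPb are induced by glucocorticoids, KLF15 drives the breakdown of branched-chain amino acids in muscle, and C/EBPb can also bind and induce Fbxo32 in wasting muscle. TGIF1 is a corepressor that dampens SMAD-dependent transcription, the route that activin and myostatin use. RNA levels, which the arrays measured, do not show where a FoxO protein is or whether it is phosphorylated.

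The promoters of 4 of the genes are given here: Foxo1 and Cebpb, whose RNA levels were higher in the same arrays, as described further on, Klf15, which followed them only in part, and Foxo3, the FoxO gene close to the noise. Each sequence is RefSeq's (build GRCm38.p6), 300 bases long, from 250 bases before to 50 bases after the annotated start, 5′ to 3′ on the gene's own strand. The stretches are chr3:52268087-52268386 on the plus strand for Foxo1, chr10:42276646-42276945 on the minus strand for Foxo3, chr2:167688665-167688964 on the plus strand for Cebpb and chr6:90462326-90462625 on the plus strand for Klf15. Capitals mark the GC box, GGGCGG or its reverse CCGCCC, the letters bound by the SP and KLF families.
Foxo1: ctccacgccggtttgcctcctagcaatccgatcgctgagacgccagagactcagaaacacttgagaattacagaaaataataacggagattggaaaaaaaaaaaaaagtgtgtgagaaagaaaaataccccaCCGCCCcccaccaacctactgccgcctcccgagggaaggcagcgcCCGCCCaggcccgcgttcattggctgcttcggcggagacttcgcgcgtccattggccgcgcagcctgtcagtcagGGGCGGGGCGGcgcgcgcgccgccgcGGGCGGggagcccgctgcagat
Foxo3: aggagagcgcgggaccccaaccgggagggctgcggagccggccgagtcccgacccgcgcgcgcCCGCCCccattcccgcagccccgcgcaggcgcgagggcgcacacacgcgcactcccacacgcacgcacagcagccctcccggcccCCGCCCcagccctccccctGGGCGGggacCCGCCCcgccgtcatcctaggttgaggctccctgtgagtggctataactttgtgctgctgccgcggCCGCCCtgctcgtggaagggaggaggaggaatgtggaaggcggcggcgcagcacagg
Cebpb: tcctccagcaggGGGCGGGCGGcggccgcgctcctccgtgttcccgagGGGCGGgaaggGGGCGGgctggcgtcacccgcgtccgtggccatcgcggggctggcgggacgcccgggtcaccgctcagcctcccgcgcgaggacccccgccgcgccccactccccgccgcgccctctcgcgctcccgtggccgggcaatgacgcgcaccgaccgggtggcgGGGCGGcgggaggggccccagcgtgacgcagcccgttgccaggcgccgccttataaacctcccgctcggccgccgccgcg
Klf15: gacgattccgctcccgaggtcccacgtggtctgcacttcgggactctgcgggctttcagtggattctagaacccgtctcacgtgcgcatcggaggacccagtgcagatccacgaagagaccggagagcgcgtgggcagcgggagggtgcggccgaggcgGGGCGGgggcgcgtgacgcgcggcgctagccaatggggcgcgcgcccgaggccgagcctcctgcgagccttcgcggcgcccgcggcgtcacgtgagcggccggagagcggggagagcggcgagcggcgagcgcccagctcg
Foxo1, Foxo3 and Cebpb each held 5 GC boxes and Klf15 held 1, with overlapping matches counted separately. A GC box was present in 35.7% of the 32851 promoters of this length, and 2.71% held 5 or more. The G and C content was 61.3% in Foxo1, 75% in Foxo3, 80.7% in Cebpb and 73.3% in Klf15, against a median of 52.7% over all promoters. Other motifs were searched on both strands. The forkhead motif GTAAACA was in none of the 4 windows and in 3.65% of all promoters. The C/EBP palindrome TTGCGCAA was in none of them and in 0.183% of all. The glucocorticoid receptor motif AGAACA was in none of them and in 19.0% of all. The core of the cAMP response element, TGACG, occurred 3 times in Cebpb, 2 times in Klf15, 1 time in Foxo3 and 0 times in Foxo1, and in 20.8% of all promoters. These matches describe letters only. The window printed for Klf15 surrounds a start inside the gene, whose annotated locus begins at chr6:90461043. Its letters and its GC box count describe that start alone. Tgif1, on chromosome 17, has several annotated starts, so that no single promoter was printed for it. Of its 5 annotated windows 1 also held 5 GC boxes, 1 held a single box and the other 3 held 0, and its levels were not divided as those of Foxo1 and Cebpb were. Foxo4 and Foxo6 had no entry.

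Signals in the deposited table are linear, background-subtracted and quantile-normalized intensities, of which 34.0% are below 0. They were set on a log2(signal + 50) scale, where a difference of dim signals is compressed. The noise threshold was 12.4, and a probe was tested if it passed that threshold in at least 5 of the 15 arrays, which 21307 of 45281 probes did. In each array 19843 to 19890 probes were above it. Of 14 probes for the 7 genes, 9 passed, and they covered 6 genes. A gene is described by its brightest probe unless stated otherwise. Foxo4, which lies on chromosome X, had 1 probe with signals of -12.6 to 4.8, above noise in 0 of 15 arrays, so that its level was not detectable and it was left out of every test. The summed signal of the 7 skeletal muscle markers tested was 129407 to 160434 in every array, while that of the 2 adipocyte markers was 44.3 to 1633 and that of the 2 neutrophil markers was -7.5 to 394.1.

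The labels of several arrays are in doubt. Cdkn1a, which encodes p21 and is induced by p53 when DNA is damaged, had signals of 4301, 294.5, 187.3, 4057 and 4634 in the arrays labelled Ctrl 1 to 5. It had 2359, 131.6, 4013, 3316 and 2694 in those labelled Dox 1 to 5, and 4560, 4047, 3623, 209.1 and 358.8 in those labelled Dox + sACVR2B 1 to 5. Thus 10 arrays were at 1000 or more and 5 were below. The labels Ctrl 1, Ctrl 4 and Ctrl 5 were high, whereas 1 array labelled Dox and 2 labelled Dox + sACVR2B were low, so that Cdkn1a ran against the label in 6 arrays. The lowest array over the limit was Dox 1 and the highest under it was Dox + sACVR2B 5. No array was moved to another group. All statements by treatment are therefore about the libraries so labelled, and the split by Cdkn1a, a measured level, is given as a description with no mean and no test.

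Compared by label, none of the 6 genes differed beyond the spread between arrays. With limma and Benjamini-Hochberg adjustment, 0 of the 21307 probes were called in each of the 3 comparisons, which is 0% of probes, and 0 of the 9 probes of these genes. At an unadjusted p under 0.05, Dox against Ctrl had 2130 probes (10%). Dox + sACVR2B had 881 (4.13%) when set against Dox and 1910 (8.96%) when set against Ctrl. None of the 9 probes of these genes was among them. An exact two-sided permutation test of each of the 27 probe comparisons, which with 5 against 5 arrays cannot go below 0.00794, gave a smallest p of 0.111. The ranges of the labels overlapped for all 9 probes in every comparison. Over all probes the share with ranges apart, higher and lower in turn, was 0.662% and 0.526% for Dox against Ctrl, 0.493% and 0.361% when Dox + sACVR2B was set against Dox, and 1.01% and 0.835% when it was set against Ctrl.

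**Figure D1:**
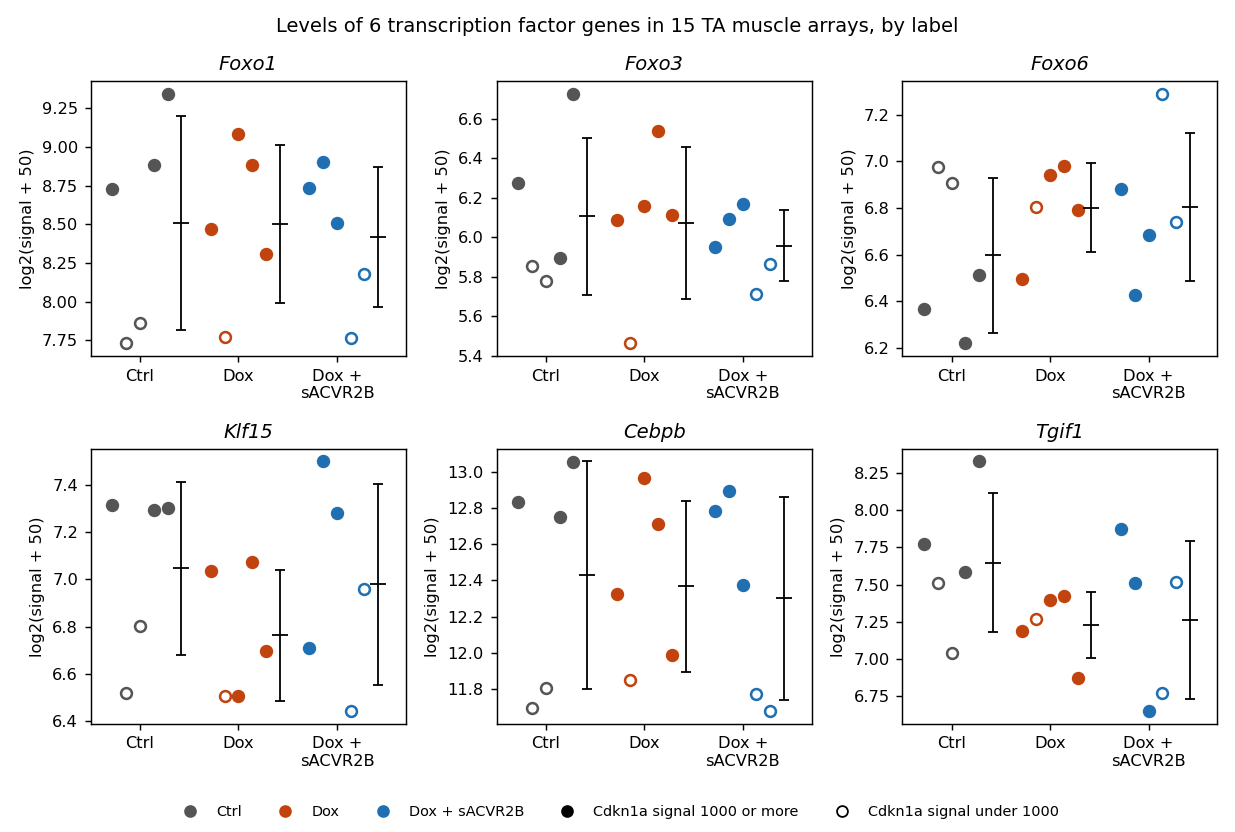
Levels as log2(signal + 50) (y axis) in the 15 arrays by label (x axis), with 1 point per array in replicate order and bars for the mean and SD of 5 arrays. Filled points have a Cdkn1a signal of 1000 or more; the open points, which lie lowest in Foxo1 and Cebpb, are the other 5.

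Foxo1, the FoxO factor that most often rises in wasting muscle, had signals of 374.8, 162.3, 182.5, 422.9 and 600.2 in the arrays labelled Ctrl. The arrays labelled Dox had 304.1, 168.5, 491.4, 421.3 and 267.4, and those labelled Dox + sACVR2B had 375.7, 428.9, 314.4, 167.4 and 239.5. Each label held both high and low arrays, and the highest and the lowest array of all 15 both carried the label Ctrl. The difference on the log2 scale was -0.01 for Dox against Ctrl (SE 0.30, limma adjusted p = 0.995), with a 95% interval of -0.65 to 0.63. The gene lies on chromosome 3. Its other probe was dim, at 3.5 to 40.5, and was highest in Ctrl 3, an array in which the brighter probe was low, so that the probes of Foxo1 disagree.

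Foxo3, which drives autophagy genes as well as Fbxo32 and lies on chromosome 10, was close to the noise. Its signals were 27.5, 7.8, 4.8, 9.4 and 55.9 with the label Ctrl, 18, -5.9, 21.5, 42.9 and 19.2 with Dox and 11.8, 18.3, 21.8, 2.5 and 8.3 with Dox + sACVR2B. Only 8 of the 15 arrays were above the noise threshold, and the other 2 probes of the gene were above it in 0 arrays. The log2 difference was -0.03 for Dox against Ctrl (limma adjusted p = 0.966) and -0.15 for Dox + sACVR2B against Ctrl (limma adjusted p = 0.850). A change in Foxo3 of moderate size was not detectable at this signal.

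Foxo6, the FoxO member that stays mostly in the nucleus, lies on chromosome 4. It had signals of 32.6, 76, 70.1, 24.5 and 41.2 in the arrays labelled Ctrl, 40.1, 61.6, 72.8, 76.1 and 60.8 in those labelled Dox and 67.8, 36, 52.8, 106.5 and 56.9 in those labelled Dox + sACVR2B. The 3 lowest arrays were Ctrl 4, Ctrl 1 and Dox + sACVR2B 2, all high in Cdkn1a. Its mean was 0.20 higher on the log2 scale with the label Dox than with Ctrl (SE 0.16, limma adjusted p = 0.692) and 0.21 higher with Dox + sACVR2B than with Ctrl (limma adjusted p = 0.738). The next probe, above noise in 7 arrays, had the opposite sign for these comparisons, at -0.23 and -0.16.

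Cebpb, on chromosome 2, was bright in every array. Its signals were 7235, 3271, 3532, 6840 and 8465 with the label Ctrl, 5083, 3644, 7959, 6655 and 4013 with Dox and 6999, 7548, 5269, 3454 and 3228 with Dox + sACVR2B. As in Foxo1, the highest array was Ctrl 5, and Ctrl 2 and Ctrl 3 were among the low ones. The log2 difference was -0.06 for Dox against Ctrl (SE 0.30, limma adjusted p = 0.962), -0.07 for Dox + sACVR2B against Dox and -0.13 for Dox + sACVR2B against Ctrl. The 95% interval of the first, -0.69 to 0.57, shows how wide the spread within labels was.

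Klf15, on chromosome 6, had signals of 109.1, 41.9, 61.6, 106.6 and 107.8 in the arrays labelled Ctrl. With the label Dox they were 81.1, 40.9, 40.9, 84.6 and 53.9, and with Dox + sACVR2B they were 54.8, 130.7, 105.4, 37 and 74.6. Ctrl 1, Ctrl 4 and Ctrl 5 lay above all those labelled Dox, and the other 2 arrays labelled Ctrl lay within their range. The log2 level was 7.05 ± 0.36 (SD, n = 5) in Ctrl, 6.76 ± 0.28 (SD, n = 5) in Dox and 6.98 ± 0.42 (SD, n = 5) in Dox + sACVR2B, in the order Ctrl, Dox + sACVR2B, Dox. Neighbours in that order did not differ beyond their spread. Dox against Ctrl was -0.28 (SE 0.20, limma adjusted p = 0.651) and Dox + sACVR2B against Dox was 0.21 (limma adjusted p = 0.996).

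Tgif1 showed the largest difference between labels among the 6 genes, and it too did not pass. The arrays labelled Ctrl had signals of 168.7, 132.7, 81.5, 141.7 and 271.4, those labelled Dox had 95.7, 104.5, 118.3, 121.5 and 67.1, and those labelled Dox + sACVR2B had 185, 132.2, 50.3, 59 and 133.3. In the arrays labelled Ctrl 4 of 5 were above every array labelled Dox, and Ctrl 3 was below 4 of them. On the log2 scale the level was 7.65 ± 0.47 (SD, n = 5) in Ctrl, 7.23 ± 0.22 (SD, n = 5) in Dox and 7.26 ± 0.53 (SD, n = 5) in Dox + sACVR2B. Dox against Ctrl was -0.42 (SE 0.23, limma adjusted p = 0.560) and Dox + sACVR2B against Ctrl was -0.38 (SE 0.23, limma adjusted p = 0.646). The next probe, dim and above noise in 8 arrays, gave 0.04 for Dox against Ctrl.

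**Figure D2:**
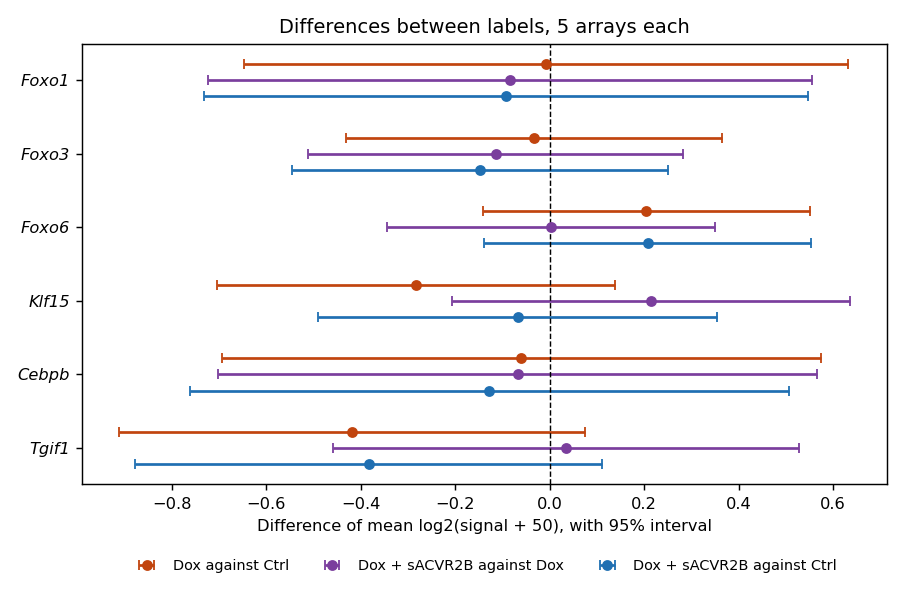
Difference of the mean log2(signal + 50) between labels (x axis) for 6 genes (y axis), with points for the estimate and bars for its 95% interval, 5 arrays per label. Every interval includes 0; the lowest point is Tgif1 for Dox against Ctrl, at -0.42.

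Without the 6 arrays whose Cdkn1a runs against their label, 2 arrays labelled Ctrl, 4 labelled Dox and 3 labelled Dox + sACVR2B remain. In these the difference of Dox from Ctrl was 0.89 for Foxo1, 0.75 for Cebpb, 0.41 for Foxo3 and 0.17 for Klf15, and -0.14 for Foxo6. That of Dox + sACVR2B from Ctrl was 0.92 for Foxo1 and 0.93 for Cebpb, with 0.50 for Klf15. These values have no test, because leaving arrays out by Cdkn1a fixes the direction for any gene whose level goes with Cdkn1a. Among the 10 arrays high in Cdkn1a alone, Dox against Ctrl was -0.30 for Foxo1, -0.07 for Foxo3, -0.38 for Cebpb, -0.47 for Klf15 and -0.68 for Tgif1, but 0.43 for Foxo6, also with no test. The sign for Foxo1, Foxo3, Foxo6, Cebpb and Klf15 thus differed between these sets of arrays. Both sets were chosen by Cdkn1a, so that no direction is read from them.

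Levels of Foxo1 and Cebpb divided the arrays as Cdkn1a did. Foxo1 was higher in each of the 10 arrays with a Cdkn1a signal of 1000 or more than in each of the other 5. Its signals were 267.4 to 600.2 in the 10 and 162.3 to 239.5 in the 5, and the arrays nearest to each other were Dox 5 and Dox + sACVR2B 5. Cebpb was split in the same way, with 4013 to 8465 in the 10 and 3228 to 3644 in the 5. In both genes the 5 low arrays included Ctrl, Dox and Dox + sACVR2B libraries.

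Foxo3 had 9.4 to 55.9 in the 10 and -5.9 to 8.3 in the 5, and since it was above the noise threshold of 12.4 only in arrays high in Cdkn1a and the gap lay below that threshold, it is not counted as divided. Klf15 overlapped, at 40.9 to 130.7 against 37 to 74.6, and 7 of the 10 arrays were above all of the 5. Foxo6 had 24.5 to 76.1 in the 10 and 56.9 to 106.5 in the 5. Tgif1 had 50.3 to 271.4 and 59 to 133.3, so that the ranges of both genes overlapped. Of the 5 genes above noise in all 15 arrays, 2 thus lay apart, Foxo1 and Cebpb. Over all 21307 probes, dim ones such as that of Foxo3 included, 1.99% were apart and higher and 1.49% were apart and lower, and with 1 probe per gene these shares were 2.39% and 1.89%. The second probe of Foxo1 overlapped and tended the other way, at 3.5 to 21.2 against 18.1 to 40.5.

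The genes around these factors were looked at in the same split, in which few of all genes were apart. With 1 probe per gene, 2.39% of all genes were apart and higher and 1.89% were apart and lower. Of 20 tested genes upstream of FoxO, Pik3r1, the regulatory subunit of PI3 kinase, was apart and higher, at 10.55 to 11.80 against 9.70 to 10.38 on the log2 scale. Of 16 glucocorticoid receptor genes and targets, Fkbp5, Ddit4 and Cdkn1a were apart and higher, the last because the split was made on it. Fkbp5, a chaperone of the receptor, had 9.31 to 10.26 against 8.37 to 8.95, and Ddit4, which encodes the mTORC1 inhibitor REDD1, had 8.04 to 9.68 against 7.59 to 7.93. Among 10 targets of KLF15, Slc2a4, the insulin-responsive glucose transporter, was lower, at 9.54 to 10.43 against 10.73 to 11.15. Klf7 was lower among 11 KLF genes, at 9.01 to 9.57 against 9.77 to 9.99. In the C/EBP family Cebpb was the 1 of 4 genes that stood apart. None of 29 FoxO targets in muscle did so, Fbxo32 and Trim63 included, nor any of 8 TGIF and SMAD partners. The tested markers of muscle and of 6 other cell types overlapped as well. The summed signal of 4 macrophage markers was 499.6 to 1476 in the 10 arrays and 645.3 to 1714 in the 5, that of 4 endothelial markers 2656 to 4280 and 2746 to 4157, and that of 2 red cell markers 3086 to 10260 and 5098 to 27820.

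By label, the same lists held 0 called genes in every comparison. For Dox against Ctrl, 9 of 29 FoxO targets were above 0 and 20 below, with a median of -0.08 on the log2 scale against -0.00062 over all 11458 genes. Sesn1, a stress-induced inhibitor of mTORC1, was lowest in p, with -0.56 (SE 0.21, limma adjusted p = 0.400). For Dox + sACVR2B against Dox, 18 of 29 were above 0, with a median of 0.09. Of all 11458 genes 5844 were above 0 in that comparison, with a median of 0.0030. Among targets of KLF15, 7 of 10 were above 0 for Dox against Ctrl, with a median of 0.06. The count was also 7 of 10 for Dox + sACVR2B against Dox, with a median of 0.20. Bcat2, which starts the breakdown of branched-chain amino acids, had 0.36 there (limma adjusted p = 0.996) and 0.52 for Dox + sACVR2B against Ctrl (SE 0.13, limma adjusted p = 0.429). In the KLF family Klf2, a factor best known from endothelium, had -0.59 for Dox against Ctrl (limma adjusted p = 0.343), and the 4 endothelial markers were all below 0 there, with a median of -0.33. Their part in the value of Klf2 was not tested. Of the TGIF and SMAD partners, Smad5 had -0.35 for Dox against Ctrl (limma adjusted p = 0.343). Smad1 had -0.45 for Dox + sACVR2B against Ctrl (limma adjusted p = 0.453). Smad3 went the other way, at 0.29 in the first comparison (limma adjusted p = 0.416) and 0.19 in the second (limma adjusted p = 0.625). In each of these comparisons 3 of the 8 genes were above 0.

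The relation of each gene to Fbxo32, on chromosome 15, was asked next, since FoxO, KLF15 and C/EBPb all bind or induce that gene. Fbxo32 had signals of 6150, 2422, 2007, 6728 and 8551 in the arrays labelled Ctrl. It had 2157, 1989, 4484, 1943 and 2064 with the label Dox and 3231, 6956, 4277, 1149 and 3608 with Dox + sACVR2B. The 3 Ctrl arrays high in Cdkn1a were among the highest, while Dox 1, Dox 4 and Dox 5 were the lowest of the 10 arrays high in Cdkn1a. Because the arrays fall into clusters by Cdkn1a, the relation was computed within the 10 arrays of the high cluster, and the other 5 are too few to give one. This does not remove Cdkn1a from the relation. Within the 10 arrays Cdkn1a had an r of 0.774 with Fbxo32 and of 0.710 with Foxo1. Both values are given as a description, because the arrays were chosen by Cdkn1a. The part of Cdkn1a in the relations was not tested.

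Within those 10 arrays, Cebpb and Foxo1 were highest where Fbxo32 was highest. For Cebpb, Pearson's r was 0.695 (permutation p = 0.0245, adjusted over 21306 probes p = 0.297) and Spearman's rho was 0.770 (permutation p = 0.0120, adjusted p = 0.267). For Foxo1, r was 0.651 (permutation p = 0.0426, adjusted p = 0.351) and rho was 0.685 (permutation p = 0.0347, adjusted p = 0.366). Neither passed the adjustment, and 0 of the 21306 probes did, which is 0%. At an unadjusted p under 0.05 there were 13.4% of all probes by Pearson's r and 12.5% by Spearman's rho, so that the 2 of 6 genes with such an r, and the 3 of 6 with such a rho, are to be read against those shares. Leaving out Dox 4 and Dox 5, the arrays farthest from the median of Fbxo32, gave an r of 0.719 for Foxo1 (n = 8, exact permutation p = 0.0439) and 0.716 for Cebpb (n = 8, exact permutation p = 0.0487). Leaving out Ctrl 5 lowered r to 0.515 for Foxo1 (n = 9, exact permutation p = 0.157) and to 0.624 for Cebpb (n = 9, exact permutation p = 0.0704). Leaving out Dox 5 lowered it to 0.548 (n = 9, exact permutation p = 0.128) and 0.610 (n = 9, exact permutation p = 0.0810). Over each array left out in turn, r was 0.515 to 0.803 for Foxo1 and 0.610 to 0.814 for Cebpb.

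Klf15 had an r of 0.567 with Fbxo32 (permutation p = 0.0893, adjusted p = 0.451) and a rho of 0.673 (permutation p = 0.0385, adjusted p = 0.377). Without Dox 4 and Dox 5 its r was 0.554 (n = 8, exact permutation p = 0.158). Tgif1 had 0.548 (permutation p = 0.103, adjusted p = 0.475), with a rho of 0.564 (permutation p = 0.0957, adjusted p = 0.490) and 0.491 without those arrays. Foxo6 ran the other way, at -0.628 (permutation p = 0.0572, adjusted p = 0.389) with a rho of -0.624 (permutation p = 0.0612, adjusted p = 0.425), and at -0.445 without those arrays. The other tested probe of Foxo6 had -0.129 (permutation p = 0.716), so that the probes differ. Foxo3 had 0.115 (permutation p = 0.755, adjusted p = 0.933) and a rho of 0.0545 (permutation p = 0.890, adjusted p = 0.978), and 0.466 without those arrays.

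Within the cluster Fbxo32 was low in 3 of the 4 arrays labelled Dox. The relations were therefore also computed with labels centred, although several labels are in doubt. After each label was centred on its own mean within the 10 arrays, Foxo1 had an r of 0.651 (exact permutation p = 0.0532) and Cebpb had 0.589 (exact permutation p = 0.174). Klf15 fell to 0.0511 (exact permutation p = 0.954), Tgif1 to 0.165 (exact permutation p = 0.751) and Foxo6 moved to -0.119 (exact permutation p = 0.785). With 864 arrangements within labels the smallest possible p is 0.00116. Some markers of other cell types also ran with Fbxo32. The median r over 2 red cell markers was 0.765 and over 3 fibroblast markers 0.640, with 0.531 over 4 endothelial markers and -0.514 over 4 macrophage markers. Of these, 1 fibroblast and 1 endothelial marker had an r below 0. The median was 0.0182 over 7 skeletal muscle markers, 0.172 over 2 adipocyte markers and 0.204 over 2 neutrophil markers. Their part in the relations was not tested.

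**Figure D3:**
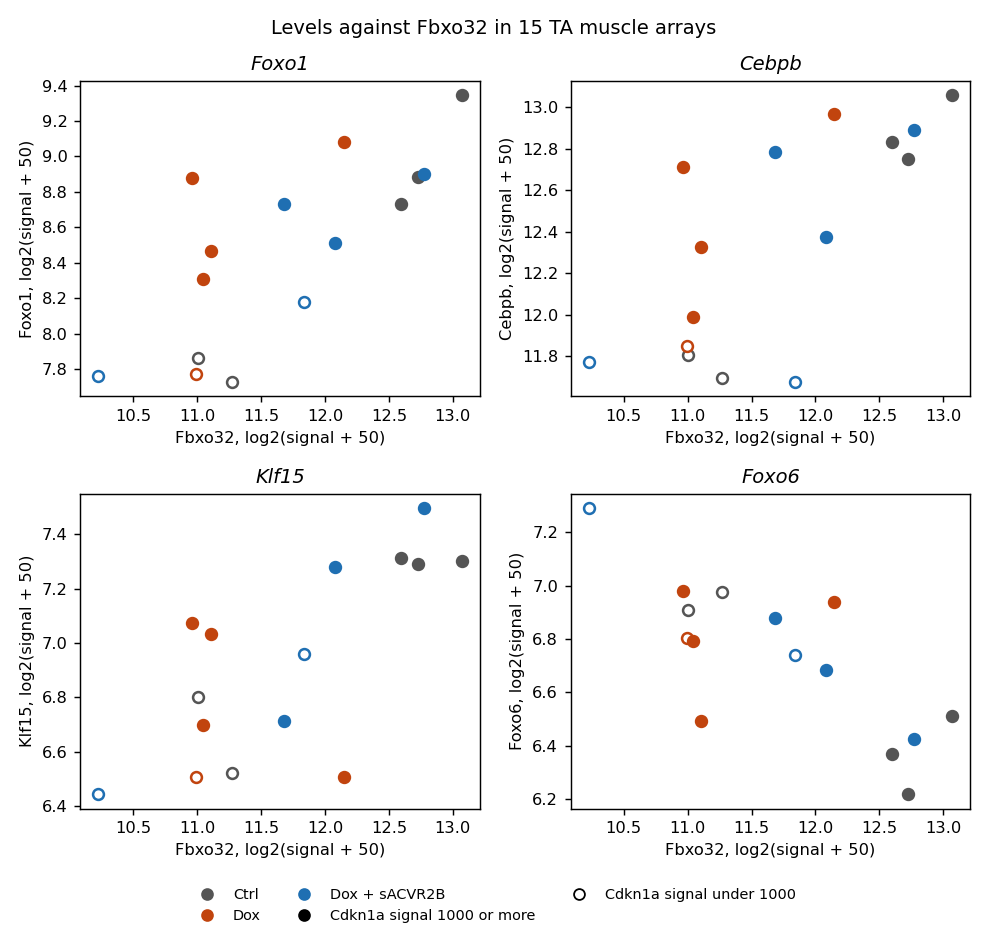
Foxo1, Cebpb, Klf15 and Foxo6 (y axes) against Fbxo32 (x axes), both as log2(signal + 50), with 1 point per array coloured by label. Over the 10 filled points (Cdkn1a signal of 1000 or more) Pearson's r was 0.651, 0.695, 0.567 and -0.628, and the open points lie below the filled ones in Foxo1 and Cebpb.

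Foxo1 and Cebpb had similar profiles within the same 10 arrays. The relation to Foxo1 was added after the values had been seen. Cebpb had an r of 0.916 with Foxo1 (permutation p = 1e-04, adjusted over 21306 probes p = 0.152) and a rho of 0.891 (permutation p = 0.00118, adjusted p = 0.361). Ctrl 5 was the highest and Dox 5 the lowest of the 10 in both genes, and without these 2, the arrays farthest from the median of Foxo1, the r was 0.901 (n = 8, exact permutation p = 0.00402). With each label centred it was 0.917 (exact permutation p = 0.00231). Over all 21306 probes 0 passed the adjustment, and 11.3% by r and 10.2% by rho had an unadjusted p under 0.05.

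Tgif1 had an r of 0.772 with Foxo1 (permutation p = 0.00893, adjusted p = 0.285) and a rho of 0.588 (permutation p = 0.0790, adjusted p = 0.527), and r was 0.477 without those arrays (n = 8, exact permutation p = 0.236). With each label centred it was 0.701 (exact permutation p = 0.0174). The other tested probe of Tgif1, dim at -1.6 to 26.2, had 0.779 (permutation p = 0.00861, adjusted p = 0.284). Without those arrays it had 0.756 (n = 8, exact permutation p = 0.0272), but its rho was 0.476 (exact permutation p = 0.243). With labels centred its r was 0.763 (exact permutation p = 0.0868). How far the relation rests on Ctrl 5 and Dox 5 thus differed with the probe and the measure. Foxo3 had 0.521 (permutation p = 0.122, adjusted p = 0.578), which became 0.0890 without them. Klf15 had 0.189 (permutation p = 0.598, adjusted p = 0.887) and Foxo6 had -0.0748 (permutation p = 0.838, adjusted p = 0.960). The rho was 0.224 for Foxo3, 0.297 for Klf15 and 0.00606 for Foxo6. Klf15 was thus nearer to Fbxo32 than to Foxo1 in these arrays, a difference that was not tested. With each label centred its r was small with both, at 0.0511 with Fbxo32 and -0.0780 with Foxo1. The 2 red cell markers had a median r of 0.737 with Foxo1, and their part in it was not tested.

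**Figure D4:**
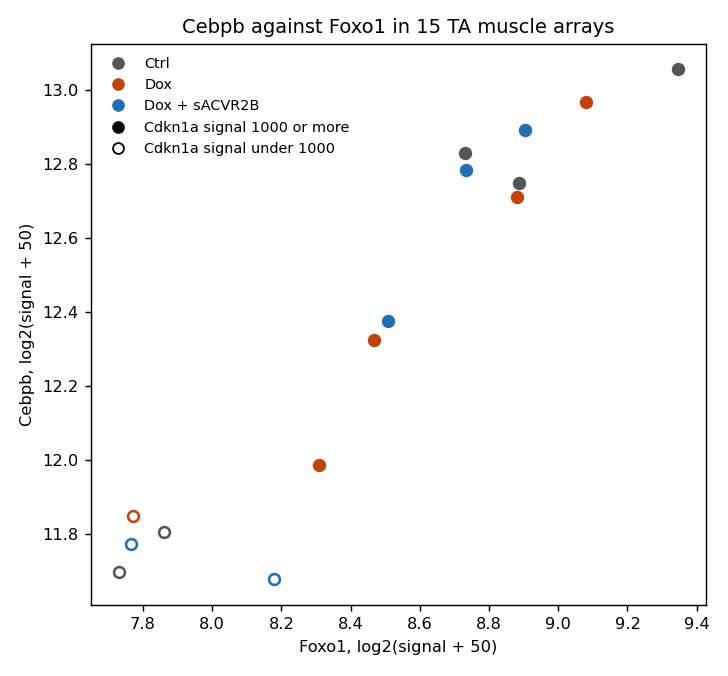
Cebpb (y axis) against Foxo1 (x axis), both as log2(signal + 50), with 1 point per array coloured by label. Over the 10 filled points Pearson's r was 0.916; the 5 open points, with a Cdkn1a signal under 1000, lie at the lower left.

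Most FoxO targets had a positive r with Foxo1 and with Fbxo32 across the 10 arrays, though 0 passed the adjustment. The list holds Klf15 and, for Foxo1, Fbxo32. Of 29 tested targets, 20 had an r with Foxo1 above 0, with a median of 0.416, whereas 52.0% of all genes did, with a median of 0.0243. Ulk1, the kinase that starts autophagy, had 0.832 (permutation p = 0.00205, adjusted p = 0.214), Cat, which encodes catalase, had 0.819 and Trim63 had 0.805. Bcl6, a transcriptional repressor, had -0.710. With Fbxo32, 23 of 28 targets were above 0, with a median of 0.249 against 0.0275 over all genes. The 3 of smallest p were Pik3ip1, an inhibitor of PI3 kinase, at 0.865, Gabarapl1, an autophagosome protein, at 0.923 (permutation p = 0.00025, adjusted p = 0.148) and Fbxo31, a ubiquitin ligase subunit, at 0.932. The tested glucocorticoid receptor genes and targets were above 0 for 13 of 16 genes with Foxo1 (median 0.394) and for 13 of 16 with Fbxo32 (median 0.412). Targets of KLF15 had 5 of 9 above 0 with Fbxo32 and 5 of 10 with Foxo1. Genes upstream of FoxO had 12 of 20 above 0 with Fbxo32 (median 0.157) but 6 of 20 with Foxo1 (median -0.130).

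**Figure D5:**
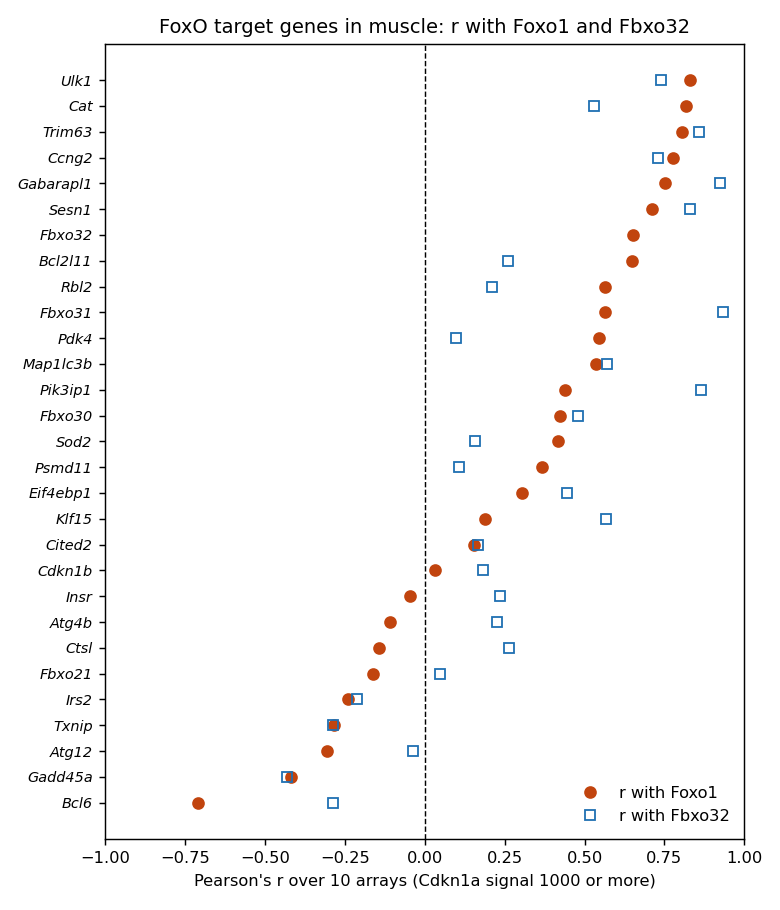
Pearson's r over 10 arrays (x axis) of each FoxO target gene in muscle (y axis) with Foxo1 (filled circles) and with Fbxo32 (open squares). With Foxo1, 20 of 29 genes lie right of 0, from Ulk1 at 0.832 down to Bcl6 at -0.710.

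The genes most like each factor over the 10 arrays were found by Pearson's r among all genes, as a description. For Foxo1 they were Tax1bp1, an autophagy receptor, at 0.957, Nudt11 at 0.946, Fgd6 at 0.944, Pold3 at 0.927 and Med15 at 0.921. For Cebpb they were Mcm4, a subunit of the replicative helicase, at 0.963, Ly6c1 at 0.957, Nudt11 at 0.957, Atp6v1h at 0.956 and Ncl, which encodes nucleolin, at 0.953. Nudt11 was in both lists. For Klf15 they were Gucy1b1, a subunit of soluble guanylate cyclase, at 0.904, Ccr7 at 0.901, Cdc37 at 0.895, Cep57 at 0.883 and Idh2, a mitochondrial isocitrate dehydrogenase, at 0.882. Foxo3 was nearest to Thumpd2 at 0.944, Olfr802 at 0.909, Eda2r at 0.869, Tmem126b at 0.867 and Poli at 0.863, and several of these were dim, as Foxo3 itself was. Over 10 arrays and 11457 other genes, high values arise in number, and no shared function was tested.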

How the data were processed

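RNA of 15 TA muscles had been hybridised to Illumina mouse bead arrays. The values are signal intensities that, per the methods, the authors had quantile-normalized before deposit. They are deposited on a linear intensity scale. Another deposited table, not normalized, was left out, because its 30 columns cannot be tied by name to the samples. Of the probes, 34885 carried a single gene in the platform annotation, 18 carried several and 10378 none. Of the first, 34807 matched the RefSeq table by gene ID.

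The noise SD of 7.52 was taken from the negative values, and 1.645 SD gave the threshold of 12.4. An offset of 50 was added before log2. Probes above noise in at least 5 arrays, 21307 of them, were fitted with limma 3.58.1 (R 4.3.3), with the 3 labels in one linear model and two-sided adjusted p by Benjamini-Hochberg over all kept probes, called under 0.05. The methods' fold of 1.5 would only lower these counts. Relations used numpy 2.4.6 and scipy 1.17.1, with 100000 permutations of the arrays over all probes, or all arrangements where fewer than 10 arrays or centred labels were used. Plots were drawn with matplotlib 3.10.9. The limma fit and the permutation of Pearson's r were tested on simulated data, and the other steps were not.

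The named genes are the 7 factors, Fbxo32 and Cdkn1a, the 5 genes most like each of Foxo1, Foxo3, Klf15 and Cebpb, and up to 3 genes of smallest p per list. Pik3r1, Fkbp5, Ddit4, Slc2a4, Klf7 and Bcl6 were named after their values were seen. Chromosomes are those of RefSeq (GRCm38.p6). The genes and lists were chosen with earlier results of these data known. Each array is 1 mouse, per the methods. The precision is limited by 5 arrays per label and by signal over background. Replicate numbers recur in the labels, but same-numbered arrays did not deviate together (r of -0.38 to 0.35), so that they were not treated as pairs. Alternatives were other offsets and filters, cyclic loess, array weights, another prior, fits of 2 labels, a replicate block, other probes and leaving out each array.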

Additional observations from a re-analysis of the deposited data

How the results depend on the processing

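Precision was limited by 5 arrays per label, by labels in doubt and by the signal over background, low for Foxo3 and absent for Foxo4. Of 782 alternatives over 35 results, 711 were classed as kept, 16 as moved and 55 as reversed. Of the latter, 41 came from leaving out 1 array and 14 from other settings, all of values that were never called. A tested value was kept if its direction and its side of the threshold stayed. The exact permutation tests reused the difference of the main fit, so that their direction could not change. Counts of relations by Spearman's rho were entered as kept without a check, and were 0 as by Pearson's r. A difference without a test, from arrays chosen by Cdkn1a, was kept if it shifted by less than the SD within labels, and moved otherwise. Its sign was not checked, so that some changes of sign are among those kept or moved. In no alternative did a gene of the group pass. Calls over all probes stayed at 0 with the replicate block and in every other setting except leaving out an array: they ranged from 0 to 2 for Dox against Ctrl (2 without Ctrl 5), from 0 to 1 for Dox + sACVR2B against Ctrl (1 without Ctrl 5) and from 0 to 0 for Dox + sACVR2B against Dox. Relations to Fbxo32 past the threshold ranged from 0 to 6 (3 without Dox 1, 5 without Dox + sACVR2B 3 and 6 without Dox + sACVR2B 1), and those to Foxo1 from 0 to 0. The replicate block changed no call, and same-numbered arrays share only a number.

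With 1 array left out, Dox against Ctrl ranged from -0.20 to 0.20 for Foxo1, -0.15 to 0.12 for Foxo3 and -0.24 to 0.10 for Cebpb (log2). Dox + sACVR2B against Ctrl ranged from -0.29 to 0.12 for Foxo1, -0.23 to 0.0084 for Foxo3, -0.31 to 0.0296 for Cebpb and -0.20 to 0.0663 for Klf15. Dox + sACVR2B against Dox ranged from -0.27 to 0.0789 for Foxo1, -0.27 to 0.0021 for Foxo3, -0.12 to 0.10 for Foxo6, -0.22 to 0.0879 for Cebpb and -0.12 to 0.19 for Tgif1. The r with Fbxo32 ranged from -0.370 to 0.429 for Foxo3, and that with Foxo1 from -0.253 to 0.0536 for Foxo6 and -0.0359 to 0.525 for Klf15.

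Other settings reversed Dox + sACVR2B against Dox for Foxo1 to 0.000265 and for Cebpb to 0.0535 with array weights, and for Foxo6 to -0.0021 with an offset of 26 and -0.0013 with cyclic loess. The other probe gave 0.0347 for Foxo1 and -0.0460 for Tgif1 in that comparison, 0.0368 for Tgif1 and -0.23 for Foxo6 for Dox against Ctrl, -0.16 for Foxo6 for Dox + sACVR2B against Ctrl, and an r of -0.0362 for Foxo1 with Fbxo32. The r with Foxo1 became 0.412 for Foxo6 and -0.0780 for Klf15 with labels centred, and 0.212 and -0.275 without the 2 farthest arrays. The cause was not tested.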
